A study of Macaca mulatta with 4 samples.

Results

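The genes described here are the ligands, receptors, secreted antagonists, SMAD proteins, ID genes and negative regulators of the transforming growth factor beta (TGF-beta), bone morphogenetic protein (BMP) and activin pathway. They were chosen by symbol: 52 symbols were listed, and 42 had a row in a table of 21314 rhesus genes. The other 10 (BMP2, BMP8A, GDF5, GDF6, GDF15, INHBA, INHBB, FSTL3, BAMBI and SMAD7) were paired with no row and were not analysed here. As 6660 rows had no symbol, a gene without a match may still be present, and nothing is known here of its expression. RF/6A is a rhesus macaque (Macaca mulatta) line that the labels call chorioretinal, and the study asked whether it has the properties of endothelium, the lining of blood vessels. Its 4 libraries form 1 group: untreated cells, purchased from ATCC as 1 lot, grown in Dulbecco's medium with 10% heat-inactivated fetal bovine serum plus penicillin and streptomycin, and titled as static. There is no control cell type or treated group, so no test between groups was possible, and nothing says whether the libraries came from separate cultures. SDs therefore describe the spread between these libraries only.

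In this pathway a secreted dimeric ligand brings together type I and type II receptor kinases. The type II receptor phosphorylates the type I receptor, which then phosphorylates a receptor-regulated SMAD: SMAD2 and SMAD3 for TGF-beta and activin, and SMAD1, SMAD5 and SMAD9 for BMPs. These enter the nucleus with SMAD4. In endothelium, ACVRL1 (also called ALK1) is a type I receptor for circulating BMP ligands and works with the co-receptor ENG (endoglin), whereas mesenchymal cells respond to TGF-beta by making matrix.

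Each library held between 20366946 and 20550610 estimated counts, and a count of 3, the limit that a count of 0 allows, corresponded to between 0.135 and 0.185 counts-per-million (CPM). CPM are counts scaled for library size and composition, and they are not divided by transcript length. They were therefore compared mainly for 1 gene between libraries. Where genes, or medians over genes, are set side by side, the order also reflects transcript length. Library 2 stood apart. Ribosomal protein genes took 15.03% of its counts against 6.12% to 6.69% in the others, and the coefficient of biological variation over all genes kept by a low-count filter was 44.9% with library 2 and 13.2% without it. Of the fixed cell type markers, 1 of 8 endothelial genes with a row reached 1 CPM in every library (PECAM1), CDH5 measured 0.601 ± 0.305 CPM (SD, n = 4), and 8 of 8 fibroblast and mesenchymal genes did. The same held for 4 of 5 pericyte and smooth muscle, 3 of 3 epithelial, 2 of 3 retinal pigment epithelium and 2 of 3 leukocyte genes, where 64.2% of rows with a symbol reached that level. Among the endothelial genes, KDR measured 2.50, 0.432, 2.07 and 1.49 CPM in libraries 1 to 4, under 1 CPM only in library 2. ERG measured 1.23, 0.493, 1.35 and 0.814 CPM, and 4 endothelial genes were below 1 CPM in every library. No marker list's part in the values below was tested.

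Most of the members with a row were expressed. A gene counted as expressed when no library had it under 1 CPM, and 33 of the 42 members met this, against 52.9% of all rows and 64.2% of rows with a symbol. The 5 members below 1 CPM in every library were the ligands BMP5 and GDF10, the receptor ACVRL1, the BMP antagonist NOG and the BMP-responsive SMAD9. The other 4, BMP6, BMP7, BMPR1B and SMURF1, lay on both sides of 1 CPM. Without library 2 the count was 35, since BMPR1B and the ubiquitin ligase gene SMURF1 were under 1 CPM only there. The median log2(CPM + 0.5) over the members was 4.04, 3.19, 4.01 and 4.02 in libraries 1 to 4, against 3.96, 3.51, 3.96 and 3.94 over rows with a symbol and a count, and 3.25, 2.80, 3.23 and 3.25 over all rows with a count. All members carry a symbol, so the former is the nearer comparison, and the members lay close to it in libraries 1, 3 and 4 and below it in library 2. It was 3.81 ± 0.42 (SD, n = 4), and 4.02 ± 0.02 (SD, n = 3) without library 2.

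**Figure D1:**
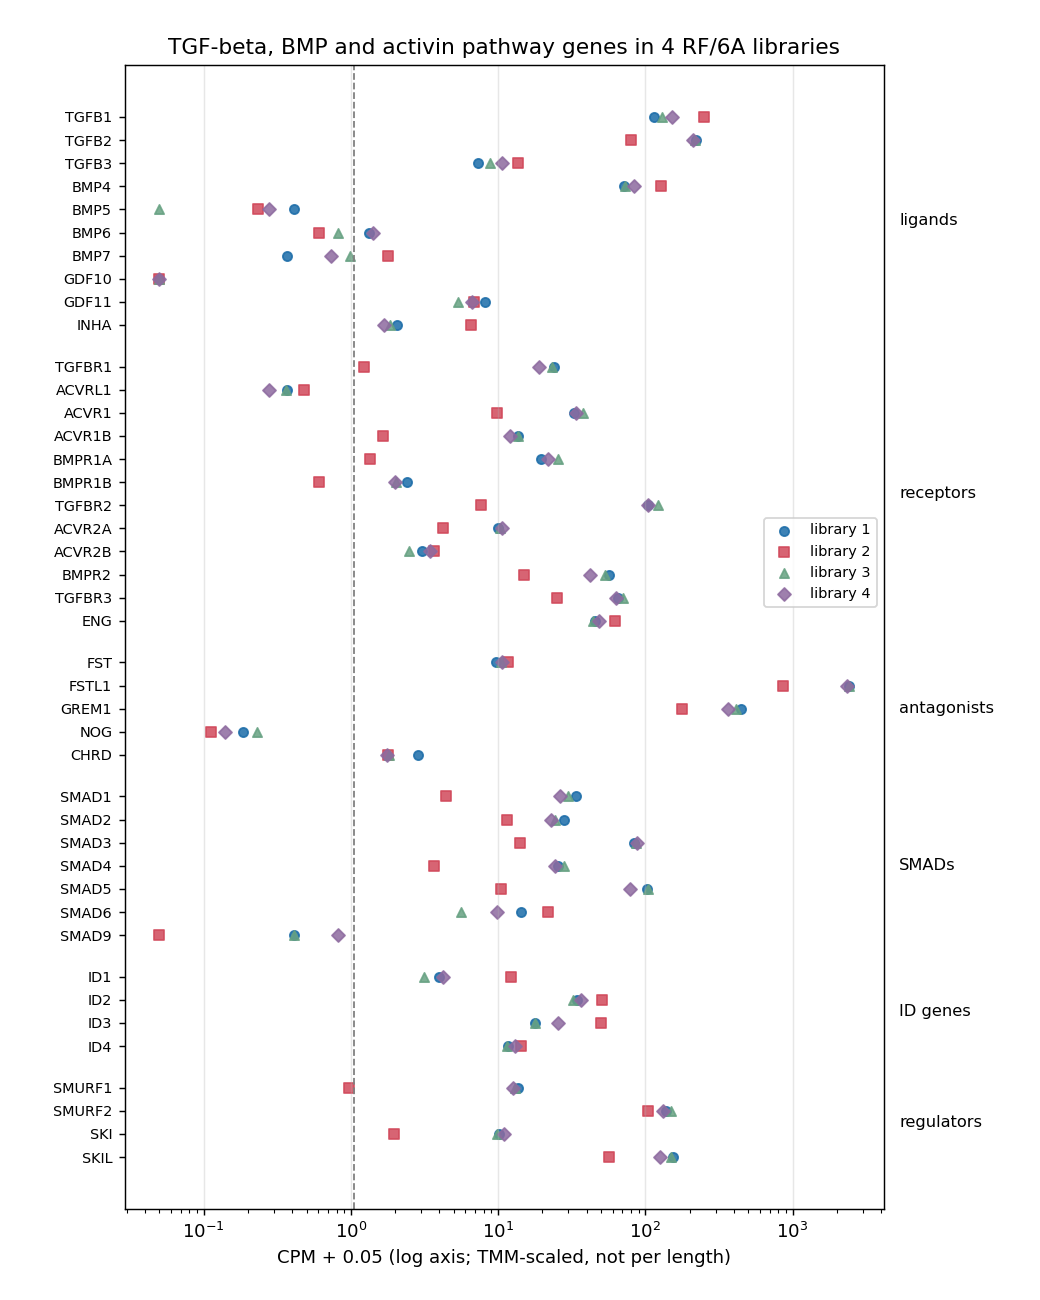
Each symbol is the level of 1 member in 1 of the 4 RF/6A libraries, as CPM + 0.05 on a log axis, grouped by role, with a dashed line at 1 CPM. The red squares of library 2 lie left of the others for most receptors, for SMAD1 to SMAD5 and for the regulators, and right of them for the ID genes (for ID4 not with plain CPM, where the difference is -0.17), and ACVRL1, NOG and SMAD9 lie left of the line in every library.

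Of the 10 ligand genes with a row, 6 were expressed. TGFB1 (ENSMMUG00000008142), a ligand made by many cell types, measured 115, 249, 129.5 and 153 CPM in libraries 1 to 4. TGFB2 (ENSMMUG00000004071), an isoform with roles in eye and heart development, measured 219.6, 80.3, 217 and 210.02 CPM. Library 2 was thus the highest for TGFB1 and the lowest for TGFB2. The count of TGFB1 divided by that of TGFB2 was 3.11 in library 2 and between 0.526 and 0.728 in the others. A ratio of counts depends on the lengths of both transcripts. Its change between libraries does not, if the same transcripts are read and length affects every library alike. Neither condition was tested. TGFB3, the third isoform, measured 7.28, 13.7, 8.72 and 10.6 CPM.

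BMP4 (ENSMMUG00000000429), a ligand of the BMP branch, measured 71.5, 128, 72.7 and 83.3 CPM. It too was highest in library 2, and its mean was 88.9 ± 26.7 CPM (SD, n = 4), or 75.8 ± 6.51 CPM (n = 3) without that library. GDF11, a ligand related to myostatin, measured 8.05, 6.79, 5.3 and 6.56 CPM, with library 2 inside the range of the others. INHA, which encodes the alpha subunit of inhibin, an inhibitor of activin signalling, measured 2.0, 6.54, 1.80 and 1.63 CPM. Its library 2 value was 3.61 times the mean of the other libraries.

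The remaining BMP ligands had few counts, at most 30 in a library. BMP6 measured between 0.555 and 1.36 CPM, and BMP7 between 0.318 and 1.73 CPM. BMP5 had 8, 3, 0 and 5 counts in libraries 1 to 4, and GDF10 had no count in any library. A count of 0 in all 4 libraries gives an exact 95% Poisson upper limit of 0.0447 CPM for GDF10. Such limits cover counting error only, and not reads assigned to another gene.

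All 12 receptor genes had a row, and 10 were expressed. ENG (ENSMMUG00000002248) had 997, 1016, 978 and 1064 counts in libraries 1 to 4, or 45.4, 62.7, 43.9 and 48.1 CPM. ACVRL1 (ENSMMUG00000004982) had 7, 7, 7 and 5 counts, or 0.318, 0.432, 0.314 and 0.226 CPM. In this endothelial receptor pair, ENG thus had close to 1000 counts and ACVRL1 under 10 in every library. On the log2(CPM + 0.5) scale, ENG in library 2 was 0.45 above the mean of the others, and 0.008 above with plain CPM. The counts of ACVRL1 are too few to show whether it was even. The exact 95% Poisson interval for ACVRL1 over the 4 libraries was 0.206 to 0.461 CPM, below 1 CPM. The ligand gene GDF2, which encodes a main ACVRL1 ligand, was paired with no row, so its expression is unknown. BMP10, which encodes the other main ligand, had no count.

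The receptors for TGF-beta itself were far apart between library 2 and the others. TGFBR2 (ENSMMUG00000010031), the type II receptor that binds TGF-beta, measured 103.6, 7.59, 121 and 104 CPM. TGFBR1 (ENSMMUG00000001304), its type I partner, measured 24.02, 1.17, 23.2 and 18.99 CPM. In library 2 these genes had 123 and 19 counts, and the mean of the other libraries was 14.5-fold higher for TGFBR2 and 18.8-fold higher for TGFBR1. Without library 2, TGFBR2 measured 109.7 ± 10.02 CPM and TGFBR1 22.1 ± 2.69 CPM (SD, n = 3). TGFBR3, or betaglycan, a co-receptor that presents TGFB2, measured 65.3, 25.2, 70.3 and 63.5 CPM, so it was low in library 2 as well, but by 2.64-fold.

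Among the BMP and activin type I receptors, BMPR1A measured 19.5, 1.30, 25.5 and 21.9 CPM, and BMPR1B 2.37, 0.555, 1.98 and 1.94 CPM. ACVR1, a type I receptor for several BMPs, measured 32.6, 9.75, 37.6 and 33.6 CPM, and ACVR1B, the activin type I receptor, 13.6, 1.60, 13.7 and 11.9 CPM. Library 2 was the lowest for each of these. The type II receptor of BMPs, BMPR2, measured 56.5, 14.9, 53.01 and 42.4 CPM. The activin type II receptor ACVR2A measured 10.01, 4.19, 10.2 and 10.5 CPM. Its paralogue ACVR2B was the exception among type II receptors, at 3.0, 3.64, 2.43 and 3.39 CPM, with library 2 the highest by a margin that turned to -0.11 on the log2 scale with plain CPM. The ratio of ACVR2A to ACVR2B counts was accordingly 1.15 in library 2 and 3.11 to 4.22 elsewhere. Paralogues share sequence, and Salmon, which the submitters' notes name, divides reads that fit several transcripts, so a part of such counts can be assigned to the wrong copy.

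Of the 5 antagonist genes with a row, 4 were expressed. FSTL1 (ENSMMUG00000002925), a secreted glycoprotein of mesenchymal cells that binds BMP4, had the largest count of any member, at 2402, 859, 2437 and 2353 CPM. It held 42.4% of the members' counts in library 2 and 55.5% to 56.5% in the others. GREM1 (ENSMMUG00000001810), which encodes the BMP antagonist gremlin, measured 444, 178, 413 and 362 CPM. The count of GREM1 divided by that of BMP4, one of the ligands it binds, was 1.39 in library 2 and 4.35 to 6.22 in the others. FST, or follistatin, which binds activin, was among the most even members, at 9.69, 11.6, 10.5 and 10.6 CPM. CHRD, or chordin, measured 2.82, 1.73, 1.75 and 1.72 CPM, and here library 1 stood apart, as the highest. Its counts were 62, 28, 39 and 38, so library 2 was the lowest before scaling. NOG, which encodes noggin, had 3, 1, 4 and 2 counts.

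Of the 7 SMAD genes with a row, 6 were expressed. SMAD3 (ENSMMUG00000015455) measured 83.4, 14.003, 86.2 and 87.2 CPM, and its partner in TGF-beta signalling SMAD2 28.2, 11.5, 24.5 and 22.7 CPM. Library 2 was the lowest for both, but by different amounts, and the ratio of SMAD3 to SMAD2 counts was 1.22 there and 2.96 to 3.83 in the others. In the BMP branch, SMAD5 measured 102.04, 10.5, 104.5 and 79.1 CPM and SMAD1 33.7, 4.38, 29.6 and 26.2 CPM. The ratio of SMAD5 to SMAD1 counts moved little, at 2.39 in library 2 and 3.02 to 3.53 elsewhere. SMAD9 had 8, 0, 8 and 17 counts. The common partner SMAD4 measured 25.6, 3.64, 27.9 and 24.3 CPM.

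SMAD6 (ENSMMUG00000019018), an inhibitory SMAD that BMP signalling induces, went the other way. It had 314, 354, 123 and 217 counts, or 14.3, 21.8, 5.53 and 9.81 CPM, so library 2 was the highest and library 3 the lowest. Its spread did not come from library 2 alone. Over libraries 1, 3 and 4 its coefficient of variation was 44.4%, where counting error alone gives 6.77%. That was above 97.2% of the 3557 rows whose mean count lay within 2-fold of its own, which had a median of 10.5%. This rank was the highest of any member and is named after all were seen, with no test.

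The ID genes encode inhibitors of basic helix-loop-helix factors and are direct targets of BMP-activated SMADs in many cell types. All 4 were expressed, and library 2 was the highest for each, for ID4 only as long as composition was corrected for. ID1 (ENSMMUG00000004403) measured 3.91, 12.3, 3.10 and 4.21 CPM. ID3 (ENSMMUG00000043586) measured 17.7, 49.9, 17.8 and 25.3 CPM. ID2 measured 34.2, 50.95, 32.1 and 36.4 CPM, and ID4 11.6, 14.4, 11.4 and 12.9 CPM. For ID4 this excess depended on the scaling: its difference from the mean of the other libraries was 0.25 on the log2(CPM + 0.5) scale, and -0.17 with plain CPM. The ratio of ID1 to ID3 counts changed little, from 0.246 in library 2 to between 0.166 and 0.221 in the others, whereas the ratio of ID1 to ID2 was 0.241 there and 0.0965 to 0.116 elsewhere.

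The 4 regulator genes SMURF1, SMURF2, SKI and SKIL, which restrain the pathway inside the cell, were lowest in library 2, unlike the inhibitory SMAD6 above. SMURF1 and SMURF2 encode ubiquitin ligases that mark SMADs and receptors for degradation. SMURF1 measured 13.6, 0.925, 13.03 and 12.5 CPM, a 14.1-fold gap, and SMURF2 138, 105.05, 149 and 131 CPM, a 1.33-fold gap. SKI and SKIL encode nuclear co-repressors that bind SMADs. SKI measured 10.1, 1.91, 9.79 and 10.9 CPM and SKIL 154, 57.0, 150.05 and 126 CPM. The low side was thus shared by all 4 genes, with sizes that differed widely between paralogues.

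Library 2 was set against the mean of the others for the 35 members with a mean of at least 1 CPM, as a description with no test, since the library was singled out after its values were seen. It was lower by 1 log2 unit or more for 20 members, against 26.9% of the 12453 rows at that level (29.1% of those with a symbol), and higher by as much for 4 (INHA, SMAD6, ID1 and ID3), against 19.3% (16.2% with a symbol). With plain CPM the counts were 20 and 2, beside 36.4% and 9.56% of rows. The median difference over the members was -1.20, beside -0.07 over all rows and -0.19 over those with a symbol. By role it was -1.72 for 11 receptors, -2.60 for 6 SMAD genes, -1.74 for 4 regulators and -0.69 for 4 antagonists, and 0.69 for 6 ligands and 0.93 for the ID genes, which plain CPM reduced to 0.25 and 0.49. Within the receptors it was -2.69 for 5 type I and -1.46 for 4 type II genes. Plain CPM shifted the median of all rows to -0.49, and with it ACVR2B, GDF11, FST and ID4 changed from above to below the other libraries. Ranks were counted only on CPM corrected for composition, and not on plain CPM. Library 2 was the lowest of the 4 for 21 of the 35 members and the highest for 12, against 48% and 43.8% of rows. Its higher ribosomal share moved with these differences, and its part in them was not tested.

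**Figure D2:**
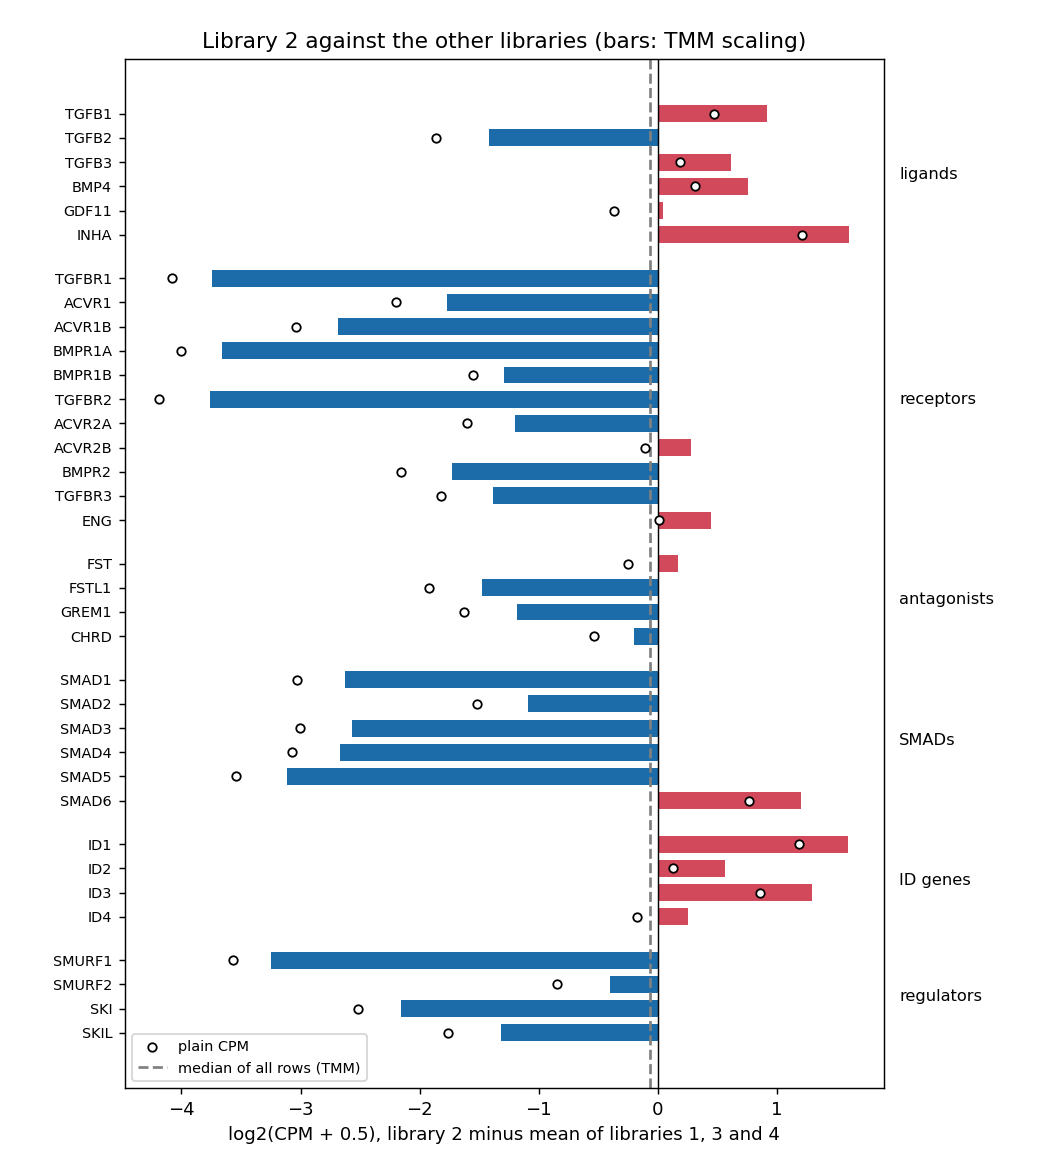
Bars give the difference in log2(CPM + 0.5) between library 2 and the mean of libraries 1, 3 and 4 for the 35 members with a mean of at least 1 CPM, open circles give it with plain CPM, and the dashed line is the median of all rows, -0.07. Of the 6 SMAD genes 5 lie at or below -1.09 and SMAD6 at 1.20, while the 4 ID genes lie between 0.25 and 1.60, with ID4 at -0.17 with plain CPM.

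Dixon's gap test at 95% was run on CPM without logarithms. By it, 1 library lay apart from the other 3 for 13 of the 35 members, against 33.8% of rows at that level, a similar share. That library was library 1 for CHRD and library 2 for the other 12. Library 2 was low for 10 and high for 2, against 11.2% of rows low and 21.8% high. The count of members with a library apart was 18 on the log2 scale and 12 with plain CPM. The share of rows was not taken under either, so the similar share holds only for CPM corrected for composition, without logarithms.

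The spread over libraries 1, 3 and 4 was described for the members as well. The median coefficient of variation of the 35 members was 10.2% without library 2, beside 8.85% for all rows at that level, a similar value. A coefficient over 3 values is itself imprecise, and the genes named here were picked from both ends of the range. TGFB2 varied by 2.32%, SMAD3 by 2.30%, ACVR2A by 2.58% and FSTL1 by 1.78%. For SMAD3 this equalled the 2.30% that counting error gives, and for ACVR2A it was below the 6.64% that counting error gives. TGFB1 varied by 14.3%, where counting error gives 1.85%, ID3 by 21.5%, where it gives 4.72%, and SMAD5 by 14.7%, where it gives 2.18%. Among rows whose mean count lay within 2-fold, TGFB1 was above 91.2%, ID3 above 91.7%, SMAD5 above 92.0% and SMAD3 above 10.3%. Library 4 was the highest of these 3 for TGFB1 and ID3 and the lowest for SMAD5, TGFBR1 and BMPR2.

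**Figure D3:**
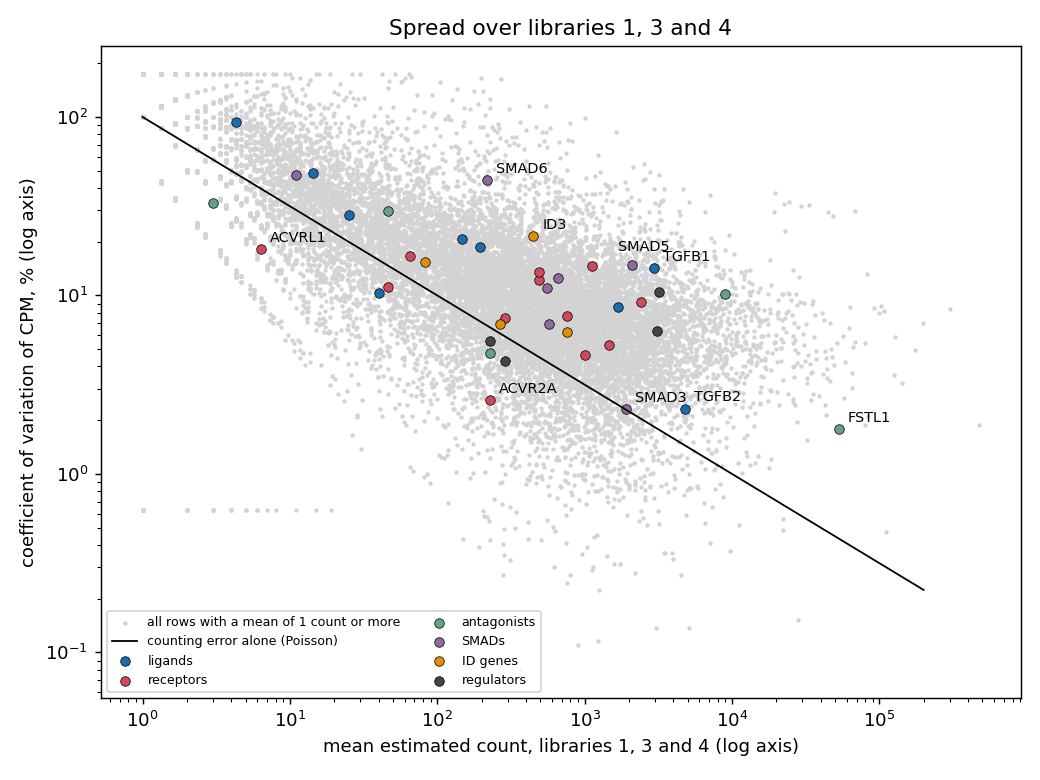
The coefficient of variation of CPM over libraries 1, 3 and 4 in percent is plotted against the mean estimated count, both on log axes, with grey points for all rows with a mean of 1 count or more, coloured points for the members by role and a line for counting error alone. SMAD6 lies high at 44.4%, ID3 and TGFB1 lie above the line at 21.5% and 14.3%, and SMAD3 lies on it.

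A further 82 pathway genes were listed, of which 66 had a row and 45 were expressed, a share near the 64.2% of rows with a symbol. Genes that store or activate latent TGF-beta were expressed in 9 of 14 cases. Of these, THBS1, which encodes the TGF-beta activator thrombospondin, averaged 434 ± 257 CPM over the 4 libraries (SD), and library 2 had 51.1 CPM. LTBP3, a latent TGF-beta binding protein, averaged 433 ± 161 CPM with 673 CPM there, and FBN1, which encodes fibrillin, 425 ± 178 CPM with 163 CPM there. Among 9 common target genes 8 were expressed, including COL1A1 at 10781 ± 3810 CPM, CCN2 at 463 ± 151 CPM and TGFBI at 109 ± 20.9 CPM. Of 11 other antagonists, 4 were expressed: the matrix proteoglycan genes BGN (594 ± 193 CPM) and DCN (307 ± 40.2 CPM), the BMP-binding membrane protein gene CRIM1 (215 ± 138 CPM, with 9.25 CPM in library 2) and NBL1.

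All 17 other cytoplasmic and nuclear regulators with a row were expressed, and the largest mean CPM were those of STRAP (125 ± 9.91 CPM), TAB2 (100.4 ± 27.2 CPM) and TGIF2 (88.7 ± 43.5 CPM). TGIF2 ranked there through its 154 CPM in library 2. Without that library it measured 67.1 CPM, below EP300 at 110.6 CPM and USP15 at 84.5 CPM. Of 8 other receptors and co-receptors, 5 were expressed, with NEO1, a receptor for the BMP co-receptors of the RGM family, at 282 ± 113 CPM, CD109, a TGF-beta co-receptor, at 102.1 ± 50.2 CPM and LRRC32, which holds latent TGF-beta at the cell surface, at 9.09 ± 1.06 CPM. Of 7 other ligands, GDF1 (14.5 ± 7.52 CPM) and INHBE (12.3 ± 2.10 CPM) were expressed. GDF1 can share a transcript with a neighbouring gene, and its counts are uncertain for that reason. The other ligands measured under 1 CPM in every library, and MSTN, or myostatin, reached 0.988 CPM in library 3 against at most 0.0617 CPM elsewhere.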

How the data were processed

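RNA of 4 RF/6A libraries was measured, and the libraries were grouped by their titles. The authors deposited estimated counts, 1 row per rhesus Ensembl gene, as whole numbers. The submitters' processing notes mention Salmon and DESeq2 but no roles. Genome build, annotation and strandedness were not given in the sources used here. Symbols came from a table of Ensembl identifiers that matched 14654 of 21314 rows.

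Scaling used edgeR 4.0.16 (R 4.3.3) and its TMM factors, trimmed means of log ratios. Values without library 2 keep this scaling except in counts of expressed genes. In the closing section on processing, leaving out a library meant scaling the rest again. Logarithms used a pseudocount of 0.5, which compresses differences of low genes. The low-count filter was filterByExpr (minimum count 10). The scripts were tested on simulated data with 200 changed genes, far fewer than differed in library 2 here. That test checks the code, and cannot show whether the scaling suits these libraries. No transcript lengths were used, so the planned differences between 2 members per kilobase were replaced by ratios of counts.

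Members and lists were chosen with earlier results of these data known. All members are accounted for, with values in every library for the 2 largest by mean CPM in each role, those in fixed pairs and those with a library apart, and of other genes the 3 largest of each subgroup. GDF2, BMP10, NBL1, EP300, USP15, BMP5, GDF11, ACVR1, PECAM1, CDH5, KDR and ERG were given beyond that rule. Alternatives were plain CPM, DESeq2 1.42.0 size factors, other thresholds and pseudocounts, a low-count filter, and each library left out.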

Additional observations from a re-analysis of the deposited data

Results flagged for a closer look

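Of 66 values tried with Dixon's gap test (the members, their group medians and the 3 other pathway genes of each subgroup with the largest mean CPM), 29 had a single library apart. About 1 in 20 would be so by chance, but 33.8% of all rows with a mean of 1 CPM were so in these libraries. It was library 2 for 27 of the values (20 low, 7 high). The values share that library and are not independent. Genes were tried on CPM without logarithms, and a gene not listed can have a larger fold gap. TGFBR1 and BMPR1A were not flagged, though the mean of the other libraries was 18.8-fold and 17.2-fold higher than library 2.

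Library 2 was the low one for TGFB2 (80.3 CPM), ACVR1B (1.60 CPM), TGFBR2 (7.59 CPM), ACVR2A (4.19 CPM), TGFBR3 (25.2 CPM), FSTL1 (859 CPM), SMAD3 (14.003 CPM), SMAD4 (3.64 CPM), SMURF1 (0.925 CPM) and SKI (1.91 CPM). Among the other pathway genes tried it was low for CCN2 (238 CPM), CRIM1 (9.25 CPM), DCN (247 CPM), NEO1 (113 CPM), TAB2 (59.7 CPM) and THBS1 (51.1 CPM). The median log2(CPM + 0.5) was low in library 2 over the members (3.19), the receptors (2.14), the SMAD genes (3.46) and the regulators (3.56).

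Library 2 was the high one for the members INHA (6.54 CPM) and ID1 (12.3 CPM), and for BGN (881 CPM), COL1A1 (16445 CPM), GDF1 (25.7 CPM), LTBP3 (673 CPM) and TGIF2 (154 CPM). Library 1 was high for CHRD (2.82 CPM), and library 3 for MSTN (0.988 CPM).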

How the results depend on the processing

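The count of expressed members was 32 to 36 under every alternative but the threshold of 2 CPM, which gave 27. Keeping only genes that pass the low-count filter removed low members and raised the median log2(CPM + 0.5) of the members from 3.81 to 4.38, of the ligands from 2.20 to 3.40 and of the antagonists from 3.47 to 5.92. Members with 1 library apart by Dixon's gap test numbered 13, but 18 on the log2 scale and 12 with plain CPM. The alternatives for library 2 against the others were chosen after seeing the data. For members higher by 1 log2 unit, leaving out library 1, 3 or 4 gave 4, 3 and 5, and SMAD6 was at 0.85 without library 3. Plain CPM gave 2 such members in place of 4, with SMAD6 at 0.77. It lowered the median difference to -1.60 for all members, 0.25 for ligands, -2.16 for receptors, -1.08 for antagonists, -3.02 for SMAD genes, 0.49 for ID genes and -2.14 for regulators. Leaving out 1 of libraries 1, 3 and 4 gave -1.28 to -1.20 for all members and -0.79 to -0.56 for antagonists. Reversed signs were GDF11 (-0.36 with plain CPM, -0.093 to 0.19 with 1 of libraries 1, 3 and 4 left out), ACVR2B (-0.11), FST (-0.25) and ID4 (-0.17). After scaling again, the mean level of INHA without library 2 moved by over 1.5 times (2.99 to 1.95 CPM). So did that of SMAD9 without library 4 (0.373 to 0.236 CPM). Without library 2 and scaled again, TGFBR1 went from 16.8 to 23.8 CPM. Differences between 2 members per kilobase were not run. No paired analysis was possible because there is 1 group. Counts under 10 limit ACVRL1, NOG and BMP5.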
